A study of Mus musculus with 18 samples.

Results

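shCdk8-1 knockdown was compared with cntrl in DMSO in 6 of the 18 RNA-seq libraries of the study. The 6 are the 3 libraries whose titles name a hairpin against Cdk8 with the number 1593 together with DMSO, and the 3 whose titles name a non-targeting hairpin against Renilla together with DMSO. Every gene that passed a filter on low counts entered the comparison, 12590 of the 50686 genes listed. E0771 is a murine mammary tumor cell line that the labels call triple-negative. All cells carried a CMV-driven Firefly Luciferase gene and a retroviral LENC vector, which expresses mCherry beside the hairpin. The cntrl cells carried the Renilla hairpin, and shCdk8-1 cells a hairpin against Cdk8. DMSO was the vehicle, given for 48 h. The other libraries used here were shCdk8-2 cells (a different Cdk8 hairpin) in DMSO, and cntrl and shCdk8-1 cells in 1 µM SnxB (Senexin B, an inhibitor of CDK8 and CDK19 kinase activity) for the same time. Each hairpin is represented by 1 stably transduced line, so a difference between lines cannot be told apart from an effect of the hairpin. The labels do not say whether the 3 libraries of a group are separate cultures, and p-values measure the spread between these libraries.

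CDK8 is a cyclin-dependent kinase of the Mediator kinase module. The module also holds cyclin C, MED12 and MED13, and it associates reversibly with Mediator, the complex that connects transcription factors with RNA polymerase II. CDK19 is the close paralog of CDK8. The module can act through kinase activity or through its physical presence on Mediator, and a knockdown lowers the protein itself while an inhibitor acts on the catalytic site.

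The hairpins against Cdk8 in the study's methods match 2 places in the last exon (13 of 13) of Cdk8, both within its 3′ UTR, on the plus strand of chromosome 5 in GRCm38. They are shown because they define the knockdown. Capitals mark the 7 bases that pair with bases 2 to 8 (the seed) of the guide strand.
upstream site, chr5:146301880-146301901: ttggagttagacttGAAATGAa
downstream site, chr5:146302117-146302138: cacagattatgttaACAAAATa
The methods give the downstream sequence under the name shCdk8-1. The titles number the hairpins 1593 and 1830, which lie 237 apart, and so do the sites, but the lower number belongs to the libraries described as shCdk8-1. Which site these libraries' hairpin matches therefore remains unsettled, and both are printed.

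The 6 libraries held 16452260 to 20967744 counts on genes. A gene with 3 counts had 0.143 to 0.182 CPM (counts scaled for the depth of the library), and lower levels cannot be told from 0. Replicate 2 of shCdk8-1 stood apart from its group: mitochondrial genes took 0.448% of its counts, against 1.02% and 1.56% in its replicates and 0.981% to 1.44% in cntrl libraries. In that library the longest 20% of genes lay 0.0995 (log2) above the shortest 20%, each relative to its group, against -0.0688 to 0.0843 in the other 5. Its counts differed from those of its replicates by 12.01 and 17.5 times the variance of counting alone, against 2.52 to 4.61 for the other pairs within the 2 groups. Without it the number of genes called higher or lower changed in 12 of the 32 gene lists read below, by 2 in 1 list (regulators of the epithelial-mesenchymal transition) and by 1 in the other 11. For some of the single genes where it decides a call or a direction, values without it are given.

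Markers were read to check the cell type. Of 15 leukocyte markers, 9 in cntrl and 12 in shCdk8-1 had at most 3 counts in every library, and their summed level was 10.5 to 12.5 CPM in cntrl and 5.67 to 7.66 CPM in shCdk8-1. The T cell marker Cd8a and the macrophage marker Adgre1 were at 0 in all 6. Ly6g, Cd14, Lyz2 and Cd68 passed the count filter, and Ly6g had 57, 44 and 58 counts in cntrl and 0 in each shCdk8-1 library. Of 10 fibroblast and endothelial markers, 3 in cntrl and 2 in shCdk8-1 had at most 3 counts in every library. Their summed level was 691.3 to 699.7 CPM in cntrl and 487.5 to 533.4 CPM in shCdk8-1, so this list was mostly detected. Vim, the mesenchymal intermediate filament, was at 4412 CPM in cntrl. Of 12 mammary epithelial and receptor markers, 9 in cntrl and 6 in shCdk8-1 had at most 3 counts in every library. Their summed level was 77.8 to 79.5 CPM in cntrl and 55.4 to 61.3 CPM in shCdk8-1. The basal keratins Krt5 and Krt14 and the progesterone receptor Pgr were at 0 in all 6 libraries. The estrogen receptor gene Esr1 had 385, 396 and 492 counts in cntrl libraries and 25, 27 and 20 in shCdk8-1 libraries. Receptor protein was not measured here, so these mRNA counts do not test the name triple-negative.

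Cdk8 mRNA was lower in shCdk8-1 cells. Cdk8 (ENSMUSG00000029635.15, chr5:146231230-146302874) had 951, 1010 and 1124 counts in cntrl and 472, 328 and 453 in shCdk8-1, so the groups did not overlap. Its level was 55.9 ± 2.13 CPM (SD, n = 3) in cntrl and 21.3 ± 2.43 CPM (SD, n = 3) in shCdk8-1, and thus fell by 61.8%. The log2 fold change was -1.39 (SE 0.0654, adjusted p = 3.22e-11, edgeR's quasi-likelihood test over all 12590 genes). In shCdk8-2 cells it was at 38.5 ± 0.404 CPM (SD, n = 3), and the direct difference of shCdk8-1 from shCdk8-2 was -0.85 on the log2 scale (SE 0.0666, adjusted p = 3.07e-07).

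The rest of the kinase module changed less. A gene was called when its adjusted p was under 0.05 and its fold change above 2, and 1553 of the 12590 genes (12.3%) were. Of the 6 module genes tested, Cdk8 alone was called. Cdk19 had 1525, 1727 and 1908 counts in cntrl and 2616, 2269 and 2391 in shCdk8-1, without overlap, a log2 difference of 0.42 (SE 0.0364, adjusted p = 5.80e-08). Ccnc, which encodes cyclin C, had a log2 difference of -0.18 (adjusted p = 0.000699). Med12 differed by 0.09 (adjusted p = 0.46) and Med13 by -0.09 (adjusted p = 0.44), with SDs of 26.4 and 20.2 CPM in shCdk8-1 against 4.36 and 5.56 CPM in cntrl. Without replicate 2 the Med12 value was -0.07. None of the 26 core Mediator genes was called by edgeR. At an adjusted p under 0.05 alone, 8 of them were higher and 2 lower, against 30.0% and 30.6% of all genes, with a median of 0.09 over the 26.

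Across all genes, 631 were called higher in shCdk8-1 (5.01% of those tested) and 922 lower (7.32%). Of these, 1412 are annotated as protein-coding. More than 4-fold changes were found for 301 higher and 406 lower genes, and more than 16-fold changes for 111 and 142. The median log2 fold change of all genes was 0.00. At an adjusted p under 0.05 with no limit on fold, 7624 genes (60.6%) differed, 3777 higher (30.0%) and 3847 lower (30.6%), so most differences were small. The counts in the gene lists below are to be read against these shares, with or without the fold limit. The 2 groups of 3 libraries did not overlap for 8221 genes (65.3%), and among the 1553 called they did not overlap for 1535. Without shCdk8-1 replicate 2, 1613 genes were called, 669 higher and 944 lower, and 1480 of the 1553 were among them.

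**Figure D1:**
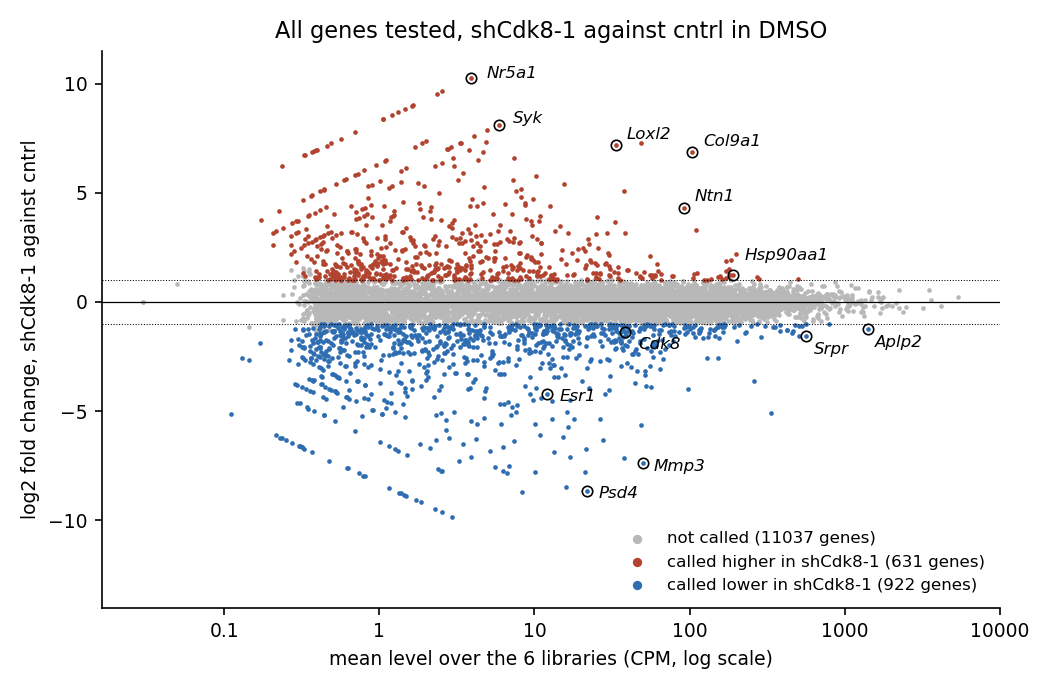
Each point is 1 of the 12590 genes tested, placed by its mean CPM over the 6 libraries (log scale) and its log2 fold change, with red for the 631 called higher, blue for the 922 called lower and dotted lines at a 2-fold change. The fitted fold changes of genes absent from 1 group, such as Nr5a1, form the sloping lines at the left and are no bounds, and Cdk8 at -1.39 lies among many genes with larger changes.

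Genes with no read in 1 of the groups made up part of the largest changes. Of the genes called, 21 had 0 counts in all 3 cntrl libraries and 28 had 0 in all 3 shCdk8-1 libraries. Folds against such a group are lower bounds, taken against 3 counts over the whole group. Nr5a1 (steroidogenic factor 1, a nuclear receptor of steroid-producing tissue; chr2:38692656-38714542) had 0, 0 and 0 counts in cntrl and 158, 143 and 154 in shCdk8-1, at least 143-fold higher. Wif1, a secreted inhibitor of Wnt proteins, went from 0 in each cntrl library to 70, 64 and 58, at least 60.5-fold higher. Aass, the first enzyme of lysine breakdown, had 0 counts in cntrl and 97, 101 and 76 in shCdk8-1, at least 86.3-fold higher. The fitted fold change, by which the 10 largest rises were ranked, places genes with a group at 0 first. The others of the 10 were Cfap97d2, Hephl1, Hhipl1, Epop, Matn2, Cygb (cytoglobin) and Ckb (brain creatine kinase), all at 0 in cntrl, with bounds between 38.8-fold (Ckb) and 94.2-fold (Cfap97d2). Genes with counts in both groups have counted ratios instead, such as Syk (325) and Krt8 (137), described further on. These ratios are estimates and the bounds are minimums, so they are not ranked against each other.

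The 10 falls ranked first in this way were also mostly genes with a group at 0. Tent5a, a noncanonical poly(A) polymerase (chr9:85320439-85327348), had 93, 103 and 131 counts in cntrl and 0 in each shCdk8-1 library, at least 115-fold lower. Lilrb4a, an inhibitory leukocyte receptor with near-identical relatives that could share reads, had 82, 102 and 67 against 0, at least 88.5-fold lower. Flrt3, an adhesion protein and ligand of Unc5 receptors, had 257, 292 and 372 against 0, 1 and 1. That ratio was 487, with an exact 95% interval of 134 to 4028 that covers counting error alone. The remaining genes of the 10 were Gm43154, Strc (stereocilin), Pde1a (a cyclic nucleotide phosphodiesterase), F2rl3 (a protease-activated receptor), Ly6g, Gm11549 and Cpne4, all at 0 in the 3 shCdk8-1 libraries, with bounds between 52.9-fold (Cpne4) and 99.1-fold (Gm43154). The counted ratios of Plxna4 (260), Mmp13 (213) and Vav1 (151) are estimates, so they are not ranked against these bounds.

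The most abundant called genes had smaller changes. The 5 called genes with the highest level among those lower in shCdk8-1 were Aplp2 (a relative of the amyloid precursor protein), Plec (plectin), Srpr (the signal recognition particle receptor), Cav1 (caveolin) and Angptl2. Aplp2 (chr9:31149557-31211815) had 32457, 35736 and 41038 counts in cntrl and 17866, 15124 and 15949 in shCdk8-1, a log2 fold change of -1.24 (SE 0.0377, adjusted p = 1.53e-13). Srpr had a log2 fold change of -1.56, from 843 ± 17.1 CPM to 285 ± 1.86 CPM (SD, n = 3 each). Plec had 9695, 11708 and 8867 counts in shCdk8-1 with the highest in replicate 2, and its fold change (-1.01) fell short of 2-fold when any of 3 single libraries was left out (cntrl replicate 1 or shCdk8-1 replicates 1 or 3) or when scaled by library totals. Cav1 (-1.01) also did so by library totals (-0.99), without cntrl replicate 3 (-0.99) and without shCdk8-1 replicate 1 (-0.999).

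On the rising side the most abundant called genes included Col6a2, Ptgfrn, Dlst and Hsp90aa1. Hsp90aa1, the inducible cytosolic HSP90, had 1913, 2085 and 2373 counts in cntrl and 5614, 4871 and 5141 in shCdk8-1. It rose by 1.22 on the log2 scale (SE 0.0416, adjusted p = 6.15e-13), and Dlst, a subunit of the mitochondrial oxoglutarate dehydrogenase complex, by 1.17. Col6a2 encodes a chain of collagen VI and rose by 1.07.

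**Figure D2:**
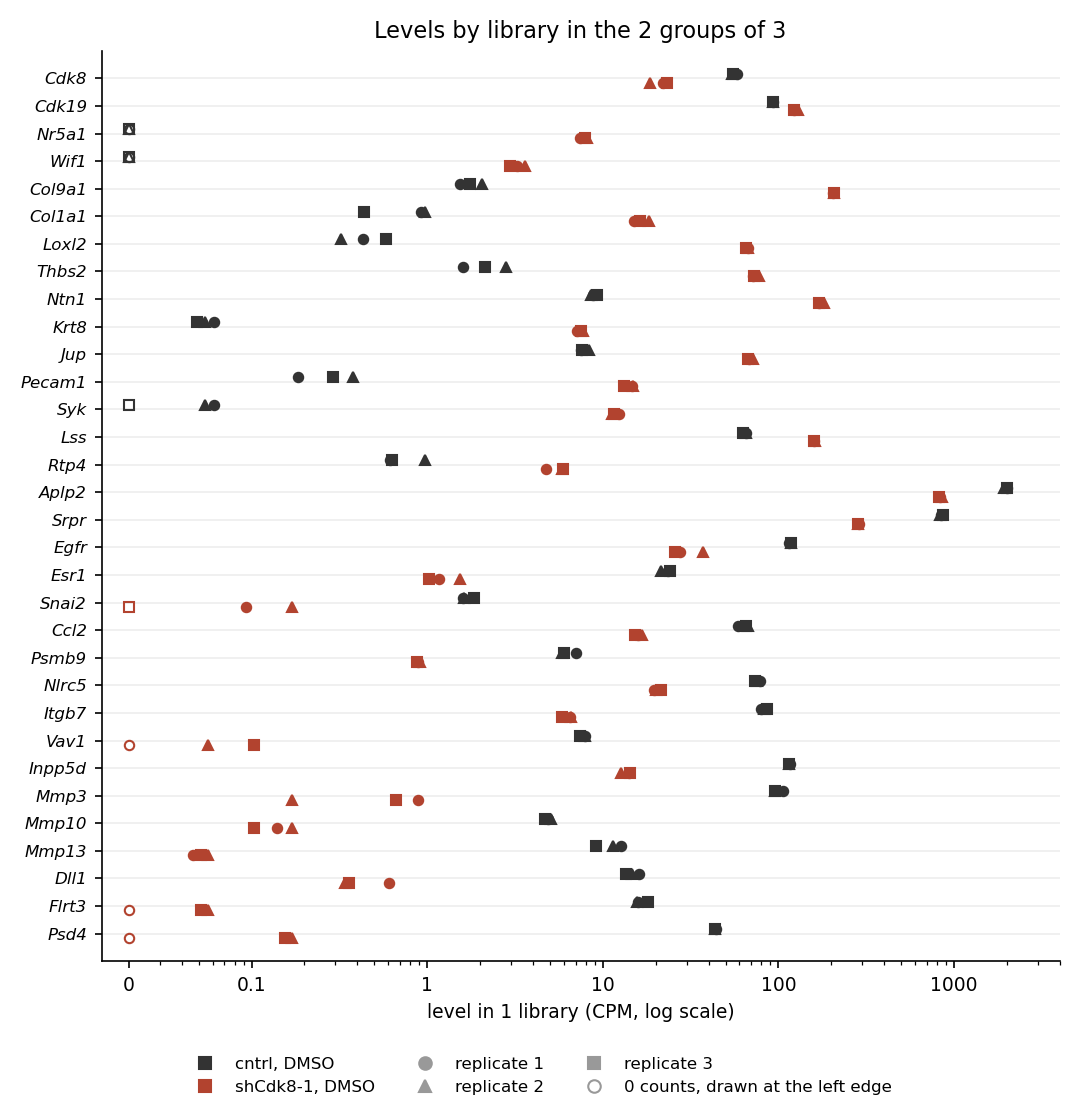
Level of 32 genes in each of the 6 libraries, in CPM on a log axis, with cntrl in black, shCdk8-1 in red and the marker shape giving the replicate; open markers at the left edge are libraries with 0 counts. For each gene shown the 3 shCdk8-1 libraries lie on 1 side of the 3 cntrl libraries, and the distance ranges from Cdk19 (log2 difference 0.42) to Nr5a1, absent from cntrl.

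Genes of the extracellular matrix moved in both directions. Collagens form the fibrils and networks of the matrix, glycoproteins such as thrombospondins link them to cells, and lysyl oxidases cross-link them. Of 21 collagen genes tested, 8 were called higher and 3 lower, against 5.01% and 7.32% of all genes, with a median of 0.26. With no fold limit, 11 were higher and 9 lower at an adjusted p under 0.05. Col9a1 (chr1:24177610-24252684), a chain of the cartilage collagen IX, had 25, 38 and 36 counts in cntrl and 4379, 3643 and 4040 in shCdk8-1. Its level rose from 1.78 ± 0.259 CPM to 206 ± 1.73 CPM (SD, n = 3 each), a log2 fold change of 6.84 (SE 0.0981, adjusted p = 4.59e-17). Col1a1, the major chain of fibrillar collagen I, had 15, 18 and 9 counts against 322, 322 and 317, and Col5a2 0, 3 and 5 against 45, 50 and 42. The 3 lower collagens were Col8a1 (log2 fold change -5.05), Col24a1 (-2.12) and Col6a3 (-1.77). Col6a3 and Col6a2, chains of the same collagen VI trimer, thus differed in direction.

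Of 32 matrix glycoprotein and cross-linking genes tested, 12 were called higher and 3 lower, against 5.01% and 7.32% of all genes. The median of the list was -0.01. With no fold limit, 13 were higher and 11 lower. Loxl2, a lysyl oxidase (chr14:69609068-69695834), had 7, 6 and 12 counts in cntrl and 1438, 1185 and 1265 in shCdk8-1, a log2 fold change of 7.18 (SE 0.109, adjusted p = 8.98e-17). Thbs1 (thrombospondin 1) had 0, 2 and 1 counts against 109, 113 and 123, a ratio of 109 with an exact 95% interval of 36.9 to 530. Matn2, a matrilin, was at 0 in cntrl and at 51, 37 and 53 in shCdk8-1. Tnc (tenascin C) went the other way with 343, 431 and 451 counts against 68, 75 and 69, a log2 fold change of -2.61. Ltbp1 and Ecm1 were also called lower, at -1.15 and -1.01, and Ecm1 lost its call with library totals (-0.98), without cntrl replicate 2 (-0.95) and without shCdk8-1 replicate 3 (-0.98).

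Genes of matrix digestion were lower more often than higher. Of 27 matrix proteases and inhibitors tested, 11 were called lower and 2 higher, against 7.32% and 5.01% of all genes. The median was -0.50, and 19 were lower and 3 higher at an adjusted p under 0.05 alone. Mmp3 (stromelysin 1, chr9:7445822-7455975) had 1726, 1766 and 1974 counts in cntrl and 19, 3 and 13 in shCdk8-1, a log2 fold change of -7.36 (SE 0.164, adjusted p = 4.48e-15). Mmp13, a collagenase, had 206, 211 and 187 counts against 1, 1 and 1, a ratio of 213 (exact 95% interval 72.5 to 1036). Mmp10, a relative of Mmp3, had 79, 94 and 96 against 3, 3 and 2. These 3 genes lie in the same metalloprotease cluster of chromosome 9. Mmp2, a gelatinase, rose by 1.76 on the log2 scale and Mmp28 by 2.03. The protease inhibitor genes Timp1 and Timp2 were lower at an adjusted p under 0.05 but changed by less than 2-fold.

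Integrin and laminin genes, which attach cells to the matrix, were called in both directions. Of 22 tested, 6 were called lower and 3 higher, against 7.32% and 5.01% of all genes. Itgb7, the beta subunit of leukocyte homing integrins, had 1304, 1535 and 1772 counts in cntrl and 139, 116 and 114 in shCdk8-1 (log2 fold change -3.72, SE 0.0686, adjusted p = 6.09e-16). Itgb2, the beta subunit of leukocyte integrins, and Itgb3 fell by 2.41 and 1.41 on the log2 scale. Itgb4, the hemidesmosome integrin, rose by 1.36, with 103, 98 and 122 counts against 324, 276 and 277. Itgal was also called higher (1.10), and it fell just short of 2-fold without cntrl replicate 2 (0.98) or without shCdk8-1 replicate 3 (0.99).

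Most of the listed epithelial genes did not pass the count filter. Of 36 listed keratin, tight junction and desmosome genes, 11 were tested. Of these, 2 were called higher and 2 lower, against 5.01% and 7.32% of all genes. Krt8, a simple epithelial keratin, had 1, 1 and 1 counts in cntrl and 153, 137 and 146 in shCdk8-1, a ratio of 137 (exact 95% interval 46.7 to 669). Krt18, another keratin of the list, did not pass the count filter and was at 0 in each shCdk8-1 library. Jup (plakoglobin), a junction protein related to beta-catenin, rose from 7.82 ± 0.425 CPM to 69.2 ± 2.53 CPM (SD, n = 3 each; log2 fold change 3.14). The tight junction genes Marveld2 and Ocln fell by 2.09 and 1.23. No library in the 6 had more than 14 counts of Cdh1 (E-cadherin), which went from 1 to 5 counts in cntrl libraries to 11 to 14 in shCdk8-1.

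Of 15 regulators and state genes of the epithelial-mesenchymal transition tested, 1 was called higher (Cdh1) and 3 lower (Snai2, Grhl2 and S100a4). The shares of all genes were 5.01% and 7.32%. At an adjusted p under 0.05 alone, 4 of the 15 were higher and 11 lower, against 30.0% and 30.6% of all genes. Snai2 (Slug), a transcription factor of the transition, had 26, 30 and 38 counts in cntrl and 2, 3 and 0 in shCdk8-1, a log2 fold change of -4.21 (SE 0.436, adjusted p = 4.33e-07). Its level of 1.69 CPM in cntrl was far below that of Zeb1 (190 CPM), Zeb2 (206 CPM) and Twist1 (49.0 CPM), although these levels are not per length. Zeb1, Zeb2 and Twist1 were lower at an adjusted p under 0.05, with log2 fold changes of -0.56, -0.32 and -0.40. Snai1, Tcf4 and Sox9 were higher by that measure, within 2-fold. Grhl2 had 9, 12 and 6 counts in cntrl and 7, 0 and 0 in shCdk8-1, so the groups overlapped. S100a4, at -1.004, fell short of 2-fold with DESeq2 (-0.9996), with DESeq2 size factors (-0.9997), by library totals (-0.98), and without cntrl replicate 3 (-0.94), shCdk8-1 replicate 2 (-0.99) or shCdk8-1 replicate 3 (-0.999). Without shCdk8-1 replicate 2 the list held 1 gene called higher and 1 lower.

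Immune genes of the tumor cells showed separate patterns for chemokines, antigen presentation and interferon response. Chemokines recruit leukocytes, and growth factors such as CSF1 sustain myeloid cells. Of 15 chemokine and myeloid growth factor genes tested, out of 40 listed, 9 were called lower and 1 higher. The shares of all genes were 7.32% and 5.01%, and the median of the list was -1.81. Ccl2, the monocyte attractant, had 956, 1241 and 1333 counts in cntrl and 339, 297 and 295 in shCdk8-1, a log2 fold change of -1.998 (SE 0.0805, adjusted p = 4.60e-12). Cx3cl1 (fractalkine) had 261, 274 and 309 against 70, 52 and 57, and the cytokine Lif 86, 73 and 116 against 17, 19 and 20. The called rise was Ccl28, from 0.0384 to 0.377 CPM.

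MHC class I molecules present peptides cut by the immunoproteasome. Of 21 genes of this pathway tested, 5 were called lower and 0 higher, against 7.32% and 5.01% of all genes. The median was -0.44. At an adjusted p under 0.05 alone, 15 were lower and 3 higher, against 30.6% and 30.0% of all genes. Psmb9, a catalytic subunit of the immunoproteasome, had 115, 108 and 123 counts in cntrl and 19, 16 and 17 in shCdk8-1 (log2 fold change -2.81, SE 0.159, adjusted p = 2.90e-10). Nlrc5, the transactivator of MHC class I genes, had 1285, 1405 and 1507 against 422, 354 and 420 (-1.89). H2-M3, a nonclassical class I gene, fell by 1.43 on the log2 scale. H2-D1 (-1.26) and B2m (-1.04), named after their values were seen, completed the 5. H2-K1 did not pass the fold limit at -0.86, and reads could be shared among H2 genes.

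Interferon-stimulated genes rose from low levels. Of 48 tested, 18 were called higher (37.5% against 5.01% of all genes) and 0 lower, with a median of 0.55. At an adjusted p under 0.05 alone, 32 were higher and 7 lower, against 30.0% and 30.6% of all genes. Rtp4 had 10, 18 and 13 counts in cntrl and 102, 104 and 115 in shCdk8-1 (log2 fold change 2.88, SE 0.213, adjusted p = 7.70e-09). Oas2 and Oasl1, members of the oligoadenylate synthetase family that senses double-stranded RNA, had 2, 3 and 1 against 25, 15 and 20, and 8, 4 and 13 against 57, 42 and 40. Irf1 and Socs1, which interferon gamma also raises, were lower at an adjusted p under 0.05.

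Surface molecules that NK and T cells read were lower more often than higher. Of 20 tested, out of 36 listed, 9 were called lower and 2 higher, against 7.32% and 5.01% of all genes. The median was -0.76, and 13 were lower and 6 higher at an adjusted p under 0.05 alone. Icam2, an adhesion ligand of leukocyte integrins, had 17, 33 and 36 counts in cntrl and 2, 1 and 1 in shCdk8-1 (log2 fold change -4.38). Vcam1, a ligand of integrin receptors, and Tnfsf18 fell by 1.69 and 1.75. The related adhesion ligand Icam1 went up, with 26, 25 and 29 counts against 59, 67 and 66 (1.18, SE 0.189, adjusted p = 4.98e-05), and so did Tnfsf10 (TRAIL), with 2, 4 and 9 against 30, 22 and 21.

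Genes better known from leukocytes were expressed by these cells and changed strongly. Of 17 leukocyte signaling genes tested, out of 38 listed, 7 were called lower and 3 higher, against 7.32% and 5.01% of all genes. At an adjusted p under 0.05 alone, 9 were lower and 5 higher. Inpp5d (SHIP1, a lipid phosphatase) had 1887, 2123 and 2347 counts in cntrl and 304, 223 and 278 in shCdk8-1 (log2 fold change -3.06, SE 0.0623, adjusted p = 1.65e-15). Vav1, a guanine nucleotide exchange factor, had 129, 147 and 153 against 0, 1 and 2, a ratio of 151 (exact 95% interval 51.4 to 736). Lcp1, an actin-bundling protein, fell by 3.84. In the opposite direction, the tyrosine kinase Syk had 1, 1 and 0 counts against 266, 198 and 224, a ratio of 325 (exact 95% interval 89.7 to 2691). Plcg2, a phospholipase that acts after Syk in B cells, rose by 2.85. The pan-leukocyte marker Ptprc had at most 7 counts in any of the 6 libraries, and Cd3e and Itgam at most 1. Pecam1 and Cdh5, both endothelial adhesion genes, moved apart, with 3, 7 and 6 counts against 313, 261 and 258 for Pecam1 and 77, 76 and 85 against 5, 4 and 3 for Cdh5.

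**Figure D3:**
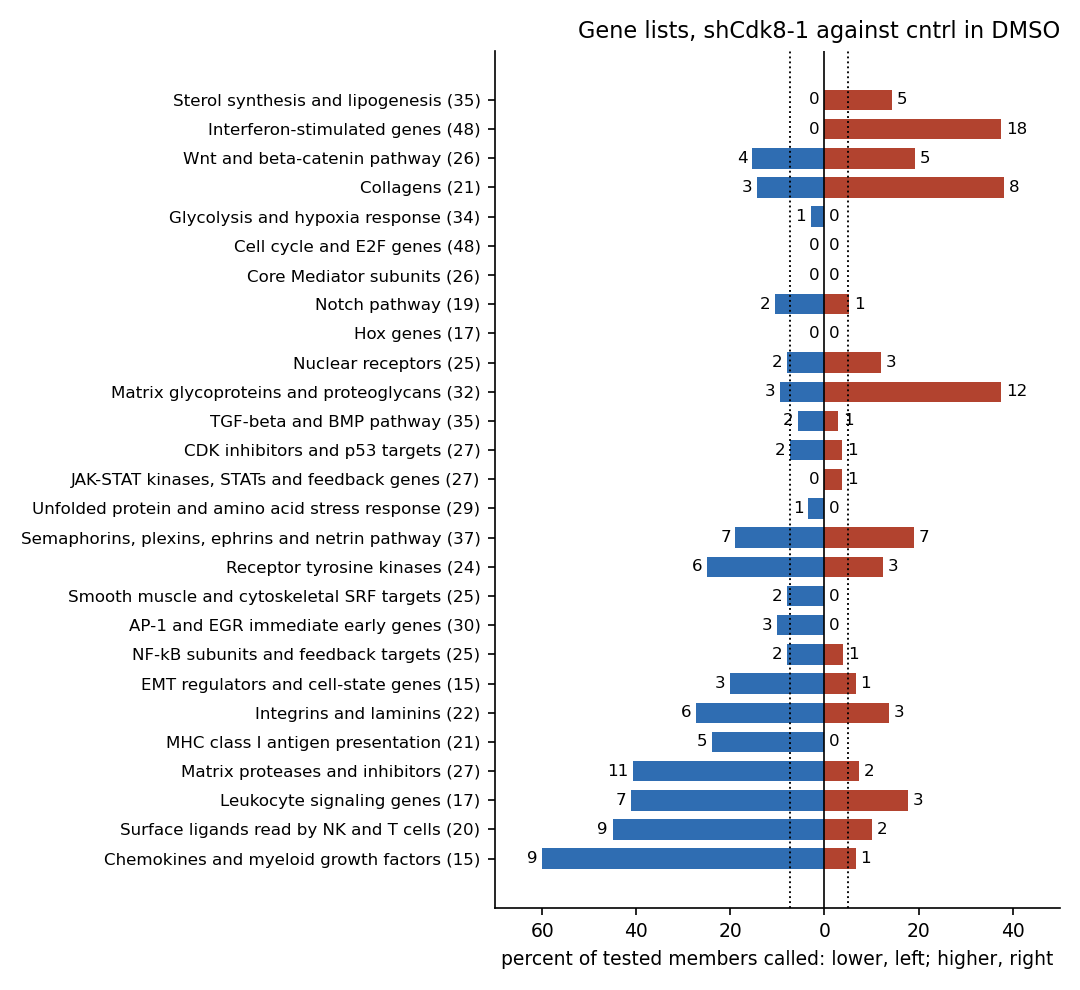
Percent of the tested members of 27 gene lists (those with 15 or more tested members, whose number is in parentheses) called lower (blue, left) or higher (red, right) in shCdk8-1, with the number of genes at each bar and lists ordered by median log2 fold change. Dotted lines mark the shares among all genes tested, 7.32% lower and 5.01% higher. Chemokines, surface ligands, leukocyte signaling genes and proteases have the longest bars to the left, and collagens, matrix glycoproteins and interferon-stimulated genes the longest to the right, while cell cycle, Hox and core Mediator lists hold 0 called genes.

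Guidance molecules and their receptors, which steer axons and vessels, were called in both directions. Of 37 tested, 7 were called higher and 7 lower, against 5.01% and 7.32% of all genes. Ntn1 (netrin 1, chr11:68209364-68400823) had 144, 158 and 190 counts in cntrl and 3655, 3227 and 3305 in shCdk8-1. Its level rose from 8.88 ± 0.370 CPM to 174 ± 7.35 CPM (SD, n = 3 each), a log2 fold change of 4.29 (SE 0.0586, adjusted p = 2.94e-17). Ntn4 was absent from cntrl and had 24, 28 and 29 counts in shCdk8-1, at least 25.5-fold higher. Efnb1, an ephrin, rose by 2.33. The semaphorin receptor Plxna4 had 221, 230 and 285 counts against 1, 0 and 2, a ratio of 260 (exact 95% interval 88.5 to 1261). Slit1 had 128, 134 and 199 against 2, 3 and 1, and Slit2 24, 26 and 18 against 0 in each library.

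Receptor tyrosine kinases and nuclear receptors held calls in both directions. Of 24 receptor tyrosine kinases tested, 6 were called lower and 3 higher, against 7.32% and 5.01% of all genes. At an adjusted p under 0.05 alone, 15 were lower and 5 higher, against 30.6% and 30.0% of all genes, with a median of -0.22. Egfr (chr11:16752203-16918158) had 1880, 2176 and 2412 counts in cntrl and 588, 658 and 502 in shCdk8-1, a log2 fold change of -1.96 (SE 0.0976, adjusted p = 6.20e-11). Ntrk3, a neurotrophin receptor, was at 0 in all shCdk8-1 libraries and at 32, 27 and 30 in cntrl, at least 31.4-fold lower. Ddr1, a collagen receptor, rose by 1.17 to 106 ± 4.75 CPM (SD, n = 3). Esr1 (chr10:4611593-5005614) had a log2 fold change of -4.22 (SE 0.158, adjusted p = 1.92e-12). Of 25 nuclear receptor genes tested, 3 were called higher and 2 lower, against 5.01% and 7.32% of all genes. With no fold limit, 8 were higher and 9 lower. The higher ones included Vdr (the vitamin D receptor) at 2.00 and Nr1h3 (an oxysterol receptor) at 1.34. The called falls were Esr1 and the bile acid receptor gene Nr1h4 (-2.28).

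In the Wnt pathway 5 of 26 tested genes were called higher and 4 lower, against 5.01% and 7.32% of all genes. The called genes were ligands, receptors and secreted inhibitors. Besides Wif1, Wnt10b and Wnt6 rose by 2.13 and 1.87 on the log2 scale. Dkk2, a secreted inhibitor, had 94, 78 and 107 counts in cntrl and 0, 0 and 1 in shCdk8-1. Axin2, a feedback target of beta-catenin, was higher at an adjusted p under 0.05 but changed by less than 2-fold (0.31). By that measure 14 of the 26 genes were higher and 8 lower, against 30.0% and 30.6% of all genes. In the Notch pathway the receptor gene Notch4 had 185, 238 and 235 counts against 6, 3 and 5, and the ligand gene Dll1 262, 271 and 277 against 13, 6 and 7, log2 fold changes of -5.60 and -5.03. Mfng was the called rise, and 16 of the 19 genes tested were not called. The share called was 15.8%, near the 12.3% of all genes. In the TGF-beta and BMP pathway 32 of 35 genes were not called, and the share called was 8.57%, below that of all genes. The receptor genes Tgfbr2 and Acvrl1 fell by 1.45 and 3.79, and Tgfb3, at 1.03, did not reach 2-fold without shCdk8-1 replicate 2 (0.99).

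Sterol and fatty acid synthesis genes rose together but modestly. Of 35 tested, 30 were higher and 1 lower at an adjusted p under 0.05, against 30.0% and 30.6% of all genes, and the median was 0.56. With the fold limit 5 were called higher and 0 lower, against 5.01% and 7.32% of all genes. The higher ones included Tm7sf2, Lss, Cyp51 and Fads2, the last 2 named after their values were seen. Lss, the enzyme that makes lanosterol, had 1070, 1215 and 1293 counts in cntrl and 3432, 2835 and 3096 in shCdk8-1 (1.30). Proliferation genes stayed within 2-fold. Of 48 cell cycle and E2F genes, 0 were called by edgeR and 0 by DESeq2, with a median of 0.14. At an adjusted p under 0.05 alone, 27 were higher and 7 lower, against 30.0% and 30.6% of all genes. Mki67 had a log2 difference of 0.02 (adjusted p = 0.90) and Myc of 0.48. Of 27 CDK inhibitor and p53 target genes, 3 were called (11.1%, against 12.3% of all genes). Among them Pmaip1 (Noxa, a mediator of apoptosis) had 218, 217 and 249 counts against 0, 2 and 1.

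In 7 further lists, of signaling, stress, metabolism and Hox genes, the share of called genes was at most 12%, so none exceeded the 12.3% of all genes. Among 30 immediate early genes 3 were called lower (Klf2, Atf3 and Spry4, at -1.53, -1.22 and -1.21) and 0 higher, and with DESeq2 or library totals 1 was higher. Of 25 NF-kB genes, Traf1 and Nfkbie were called lower, at -2.79 and -1.66, and 1 gene higher. The cytokine receptor gene Osmr, with 15, 18 and 18 counts against 151, 132 and 152, was the single call among 27 JAK-STAT genes. Mylk, the myosin light chain kinase, fell by 3.402 (log2) from 942, 989 and 1166 counts to 132, 103 and 75, and was 1 of 2 calls among 25 cytoskeletal SRF targets. Of the 29 genes of the unfolded protein and amino acid response 1 was called (Chac1, -1.28), of 34 glycolysis and hypoxia genes 1 (Eno2, -1.26), and of 17 Hox genes 0 (by edgeR and DESeq2), with 4 at an adjusted p under 0.05 alone. By that measure 22 glycolysis and hypoxia genes were higher and 5 lower, and 7 and 19 of the unfolded protein and amino acid response. The immediate early list had 7 higher and 18 lower, NF-kB 4 and 14, JAK-STAT 6 and 14, and SRF targets 4 and 16. Among all genes 30.0% were higher and 30.6% lower.

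The second Cdk8 hairpin showed for which genes the level differed between the 2 knockdown lines. The direct test of shCdk8-1 against shCdk8-2 called 261 genes (2.07% of 12590), 88 higher (0.699%) and 173 lower (1.37%) in shCdk8-1. Of the 1553 genes called against cntrl, 222 also differed between the hairpins. The direct test reuses the 3 shCdk8-1 libraries of the main comparison. Both comparisons with cntrl rest on the same 3 cntrl libraries, so their values are given side by side. shCdk8-2 against cntrl called 1364 genes (10.8%). Loxl2 was at 66.4 ± 1.21 CPM in shCdk8-1 and 60.2 CPM in shCdk8-2 (adjusted p of the difference 0.0709), and Efnb1 at 35.4 and 34.9 CPM (adjusted p = 0.89). Tgfbr2 was at 34.0 and 34.5 CPM. Ntn1, at 174 and 141 CPM, differed by 0.30 on the log2 scale.

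Other genes differed in level between the hairpins, which does not mean that they changed in shCdk8-1 cells alone. Ppargc1a, a coactivator of mitochondrial genes, had 51, 72 and 62 counts in cntrl and 622, 520 and 596 in shCdk8-1, and stood at 29.7 CPM in shCdk8-1 against 6.30 CPM in shCdk8-2, a log2 difference of 2.23 (SE 0.0812, adjusted p = 9.78e-11). Sox6 and Aldh1l1 were higher in shCdk8-1 by 2.77 and 2.40. Psd4, an Arf exchange factor (chr2:24367580-24414954), had 721, 806 and 896 counts in cntrl and 0, 3 and 3 in shCdk8-1. It was at 6.28 CPM in shCdk8-2, a log2 difference of -5.85 between the hairpins (adjusted p = 7.39e-10). Col9a1 (206 and 74.8 CPM), Thbs1 (5.94 and 0.732 CPM) and Osmr (7.45 and 2.27 CPM) were higher in shCdk8-1, and Krt8 was lower (7.47 and 12.9 CPM, log2 difference -0.79, adjusted p = 8.91e-06). Against cntrl, Col9a1, Thbs1 and Krt8 also rose in shCdk8-2, by 5.38, 3.64 and 7.73 on the log2 scale.

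The comparison was repeated between cntrl and shCdk8-1 libraries in SnxB, none of them among the 6. The 2 fits did share libraries in the count filter, the scaling and the estimate of spread. In SnxB, shCdk8-1 against cntrl called 1636 of 12772 genes (12.8%), 734 higher (5.75%) and 902 lower (7.06%). Of the 631 genes called higher in DMSO, 556 were called higher in SnxB, and of the 922 called lower, 788 were called lower. In all, 1344 genes were called the same way, 86.5% of the DMSO calls and 82.2% of the SnxB calls, and 0 were called in opposite directions. Across the 12577 genes tested in both, the log2 fold changes had a Pearson correlation of 0.95 and a Spearman correlation of 0.88. Genes are not independent replicates, and both comparisons use the same 2 cell lines. Cdk8 had a log2 fold change of -1.25 in SnxB (SE 0.0745, adjusted p = 1.24e-11).

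List counts in SnxB were close for some lists and less so for others. Collagens had 8 called higher and 3 lower among 22 tested, interferon-stimulated genes 20 and 0 among 49, matrix proteases 2 and 8 among 27, chemokines 2 and 8 among 14, and surface ligands 2 and 9 among 20. Keratins and junction genes had 4 and 3 among 12, against 2 and 2 among 11 in DMSO, and integrins and laminins 2 and 9 among 22, against 3 and 6. The difference of the 2 effects, tested as the interaction of SnxB with the hairpin, was called for 5 of 12772 genes (0.0391%). The effect was higher in SnxB for Ppp1r16b (1 gene, 0.00783%) and lower for Thbs2, Atp6v0a4, Agt and Cd244a (4 genes, 0.0313%). At an adjusted p under 0.05 with no limit on fold there were 39 (0.305%).

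**Figure D4:**
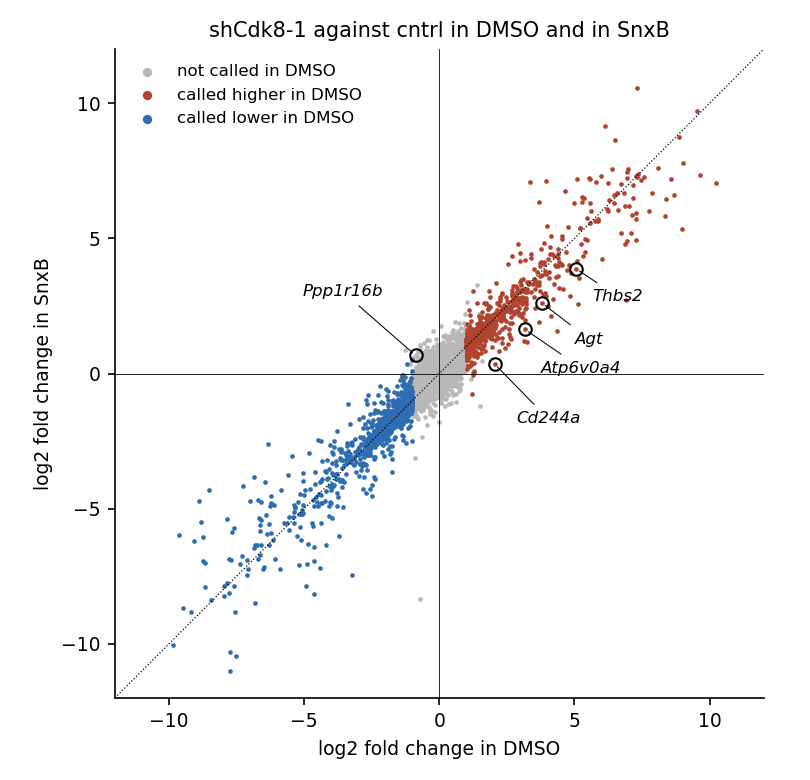
Log2 fold change of shCdk8-1 against cntrl in DMSO (horizontal) and in SnxB (vertical) for the 12577 genes tested in both, with red and blue for genes called higher or lower in DMSO and a dotted line where both are equal. Most genes lie near the line (Pearson r 0.95), and the 5 circled genes are those called in the interaction.

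Some changes were shared by neighboring genes. The genes that averaged 2 CPM or more were ordered along each chromosome, and the median log2 fold change was taken over every window of 20 neighbors, 10110 windows of 10490 genes in all. The 1st and 99th percentiles of these medians were -0.53 and 0.60. The lowest window lay on chromosome 9, from Snx19 to Chek1 (chr9:30427108-36727065), with a median of -1.34. In it 19 of 20 genes were lower and 16 were called lower, against 7.32% of all genes. Aplp2 and Srpr, both abundant falls, lie within it, and Adamts8, a matrix protease in this window, had 965, 963 and 1226 counts in cntrl and 79, 69 and 56 in shCdk8-1. The next was on chromosome X, starting at Rap2c, with a median of -1.05, all 20 genes lower and 12 called lower. There Arhgef6, also a guanine nucleotide exchange factor, had 1595, 1696 and 1861 counts against 204, 157 and 173.

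The highest windows were on the distal part of chromosome 12. From Ccdc88c to Akt1 (chr12:100912700-112674884) 43 consecutive windows exceeded the 99th percentile. Of their 62 genes, 59 were higher, with a median of 0.67, and 7 were called higher. A neighboring run from Riox1 to Zc3h14 held 49 genes with a median of 0.64, 47 of them higher. Hsp90aa1 lies in the first of these runs and Dlst in the other. Ccdc85c, also in the first, had 0, 0 and 2 counts against 124, 134 and 132. On chromosome X, apart from the low window, a window had a median of 0.62, with all 20 genes higher and 2 called higher, and 1 window on chromosome 16 also exceeded the 99th percentile, at 0.61. Over the chromosome 9 window, the low chromosome X window and the run from Ccdc88c to Akt1 the medians in SnxB were -1.34, -0.91 and 0.64, and those of shCdk8-2 against the shared cntrl libraries were -1.01, -0.77 and 0.57. DNA copy number was not measured here.

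**Figure D5:**
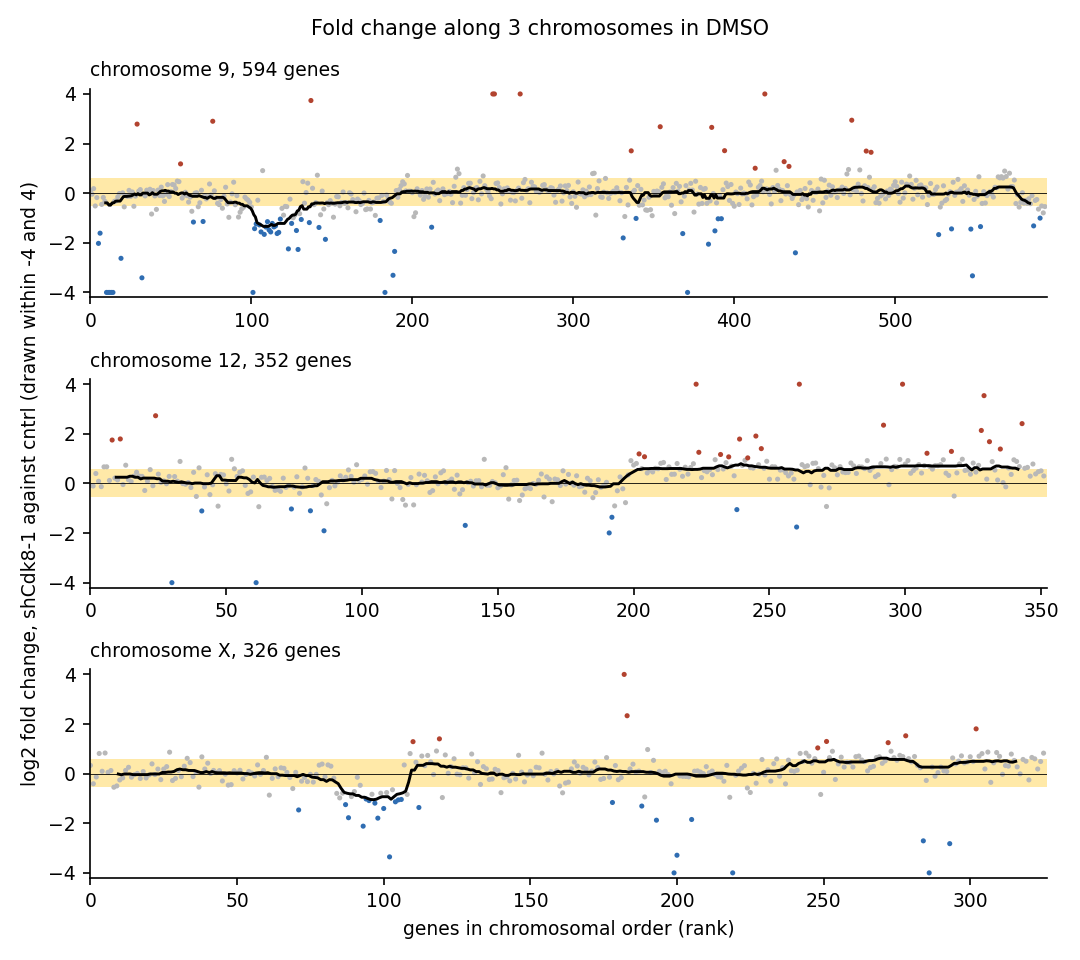
Log2 fold change of genes with at least 2 CPM in chromosomal order on chromosomes 9, 12 and X (points, red and blue where called and drawn within -4 and 4), with the running median over 20 genes as a black line and the 1st to 99th percentile of all windows (-0.53 to 0.60) shaded. The line falls to -1.34 on chromosome 9 and -1.05 on chromosome X, and stays near 0.6 over the distal genes of chromosome 12.

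Matches to the seeds of the guides were counted in the annotated 3′ UTRs of 11271 genes as a description. Genes with 0, 1 and 2 or more matches to the downstream site's seed sequence (ACAAAAT) had median log2 fold changes of 0.02, -0.02 and -0.07 in shCdk8-1. For the upstream seed sequence (GAAATGA) they were 0.02, -0.05 and -0.06. The medians in shCdk8-2 were 0.02, -0.04 and -0.07 for the downstream and 0.02, -0.06 and -0.03 for the upstream sequence. Genes with more matches had longer 3′ UTRs, with medians of 979.5, 2326 and 3582 bases for the downstream sequence, and the part of length in these differences was not tested.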

How the data were processed

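Single-end RNA-seq of E0771 cells was read from the deposited counts per gene. The authors trimmed reads with Trimmomatic, mapped them with STAR to GRCm38 and counted them by strand on exons with featureCounts 1.5.1 and GENCODE M13, per the file headers and labels, so the deposited counts are not normalized. Here, genes kept by filterByExpr (minimum count 10, total 15) were scaled by TMM and tested with the quasi-likelihood test of edgeR 4.0.16 in R 4.3.3, with Benjamini-Hochberg adjustment. The main model held 12 libraries (cntrl in DMSO and SnxB, both hairpins in DMSO). The SnxB comparison and the interaction used 18. Calls needed an adjusted p under 0.05 and over 2-fold. SE was derived from the F statistic. CPM intervals and floors cover counting error only. In simulated counts with 200 changed genes among 12275, 200 were recovered with 1 false call. All changes were set well beyond 2-fold, in genes not near 0 in cntrl and with no outlying library, so recovery was easy. How far this holds for the genes called in the deposited counts, such as those near 2-fold or near 0 counts, was not tested.

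Genes were named as the kinase module, the 10 largest rises and falls (at least 1 CPM in 1 group, no overlap), the 5 most abundant calls in each direction, up to 3 per list and direction, interaction calls, the largest differences between hairpins, and genes of extreme windows. Others (among them Zeb1, Timp1 and Irf1) were named after their values were seen. These lists and rules were chosen with earlier results of these data known. Alternatives were DESeq2 1.42.0, other scalings, filters, thresholds, libraries and a replicate block. Symbols came from GENCODE M21 (50376 of 50686 genes). Shared replicate numbers did not pair the libraries. Some results are not reported here.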

Additional observations from a re-analysis of the deposited data

Results flagged for a closer look

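The effect of shCdk8-1 differed between DMSO and SnxB for 5 genes by the interaction test (edgeR's quasi-likelihood test, adjusted over 12772 genes). Values are log2 differences of the effect, SnxB minus DMSO. Thbs2 (thrombospondin 2) had -1.18 (adjusted p = 0.00324): cntrl cells went from 2.18 CPM in DMSO to 4.603 CPM in SnxB, and shCdk8-1 cells from 73.7 to 67.6 CPM. Atp6v0a4, a proton pump subunit, had -1.54 (adjusted p = 0.00304), with cntrl at 0.757 and 2.75 CPM and shCdk8-1 at 6.93 and 8.54 CPM. Agt (angiotensinogen) had -1.19 (adjusted p = 0.0209), with cntrl at 1.199 and 3.77 CPM and shCdk8-1 at 16.5 and 22.9 CPM. Cd244a, an NK cell receptor gene, had -1.69 (adjusted p = 0.0188), with cntrl at 0.680 and 1.39 CPM and shCdk8-1 at 2.84 and 1.77 CPM. Ppp1r16b, a phosphatase subunit, had 1.55 (adjusted p = 0.00869), with cntrl at 3.47 and 2.45 CPM and shCdk8-1 at 1.87 and 3.93 CPM. In Thbs2, Atp6v0a4 and Agt, cntrl levels were higher in SnxB while the effect kept its direction.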

How the results depend on the processing

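The Cdk8 fall held its call under every alternative run (-1.45 to -1.30 on the log2 scale). Counts of called genes in DMSO ran from 1042 (glmTreat against 2-fold) to 1977 (no filter), and 1568 to 1613 without single libraries. With no fold limit they were 7624 in DMSO, 7739 in SnxB, 2766 between hairpins and 39 in the interaction. With glmTreat they were 1059 in SnxB, 69 between hairpins and 0 in the interaction, where 35 genes had an unadjusted p under 0.05. The interaction gave 15 calls without a filter and 3 at an adjusted p under 0.01. It gave 3 to 5 without single libraries, with 3 when cntrl DMSO replicate 2 or cntrl SnxB replicate 1 or 3 was left out. Leaving out libraries gave 239 to 269 calls between hairpins and 1648 to 1696 in SnxB. Same-numbered libraries of different groups had correlations of -0.17 to 0.08, and the replicate block called 1553 genes in DMSO, 255 between hairpins, 1635 in SnxB and 5 in the interaction. Over 2384 combinations of 159 named genes and alternatives, 2339 kept direction and side of the threshold, 43 lost the call, 1 gained it and 1 reversed (Med12, not called, -0.074 without shCdk8-1 replicate 2, and -0.074 to 0.18 over single libraries left out). Outside glmTreat, 11 genes changed, among them Plec, Cav1, S100a4, Ecm1, Itgal, Lyz2, Tgfb3, Cdkn1c, Ppp1r16b and Med12. The list counts without shCdk8-1 replicate 2 were added after seeing the data. The cause of these changes was not tested. Changes in genes near 3 counts in both groups could not be seen at this depth.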
